A study of Sus scrofa with 8 samples.

Results

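The collagen chains examined here were COL1A1, COL1A2, COL3A1, COL5A2, COL6A3, COL11A1 and COL12A1, 7 genes measured by 8 of the 25470 transcript clusters of a porcine gene array. A transcript cluster is the set of probes that the array reads out as a single value. Members were found by symbol in the gene column of the comparison sheet deposited with the arrays. Of the 7 genes, COL1A1 and COL12A1 stood there only as placeholder loci and were named through their RefSeq gene records. The sheet lists 2331 clusters, all with at least a 2-fold difference between infarcted and remote tissue and an unadjusted p of at most 0.0499 in the authors' own comparison of these samples. Collagen clusters with smaller changes thus have no name in it and are left aside, and the direction of the members below was in part a condition of their choice.

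Left ventricular tissue came from 4 healthy young female Large White pigs in which a balloon closed the left anterior descending coronary artery for 90 min before blood flow was restored. Each heart gave an infarcted sample from the anterior wall and a remote sample from the posterior wall, 8 samples in all, and no heart without an infarction was included. All pigs had received amiodarone, acetylsalicylic acid and antibiotics, and had been included for a large infarct and a low ejection fraction. The design text of the series places tissue collection at day 7 after the occlusion and the paper's methods at day 10. Values are log2 signals as deposited, and the change is the infarcted minus the remote value of the same pig, so that 1 log2 unit is a doubling.

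After an infarction, fibroblasts of the heart turn into secreting cells that replace the lost muscle with a collagen scar. The fibrillar collagens I, III, V and XI form long triple helices that assemble side by side into fibrils. The alpha-1 and alpha-2 chains of collagen I, encoded by COL1A1 and COL1A2, combine in the same molecule, collagen III shares fibrils with collagen I and keeps them pliable, and collagens V and XI are minor chains inside the fibril that help to start it and set its width. Collagen VI builds beaded filaments close to cells, and collagen XII sits on the surface of fibrils and links them to the surrounding matrix.

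Any pair of arrays correlated with an r of 0.840 to 0.978 over all clusters, and their median signals ran from 2.96 to 3.22. Both arrays of pig 4 had a narrower spread of signals (SD of 1.46 in infarcted and 1.49 in remote tissue) than the other 6 arrays (1.68 to 1.84). Some collagen values moved by more than 1.5 times when pig 4 was left out. For fold changes, the planned ratios (COL1A1 to COL1A2 and to COL3A1) and the fibrillar score, the value without pig 4 then stands beside them. Other differences between chains are given for all 4 pigs only.

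All 7 collagen genes had a higher signal in infarcted than in remote tissue in each of the 4 pigs. A rise in all 4 pigs was found in 14.3% of the 25470 clusters. COL12A1 had the largest change, a 16.7-fold rise, followed by COL1A1 with 8.01-fold (4.72-fold without pig 4). COL1A2 rose 5.94-fold, COL3A1 4.93-fold, COL5A2 4.24-fold and COL11A1 3.67-fold. COL6A3 had the smallest change, 2.97-fold in its first cluster and 1.94-fold in its second. In limma with the pig as a block, 7 of the 8 clusters were called higher, which required more than a 2-fold difference and an adjusted p below 0.05. In that fit 3.33% of all clusters were called higher and 4.56% lower. The same 7 clusters were called without the pig in the model, where 2.19% of all clusters were called higher and 3.19% lower. The second COL6A3 cluster passed the adjusted p with all 4 pigs and lay just under the fold limit. Without pig 1, 2 or 3 its limma adjusted p was 0.0830, 0.0577 and 0.119. Because the sheet had been selected on the same contrast, the count of called clusters describes the members and tests nothing. In all 8 clusters the 4 infarcted values lay above the 4 remote ones, a pattern found in 5.19% of the 25470 clusters. Bulk tissue does not separate a gain in collagen-making cells from more collagen RNA per cell.

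**Figure D1:**
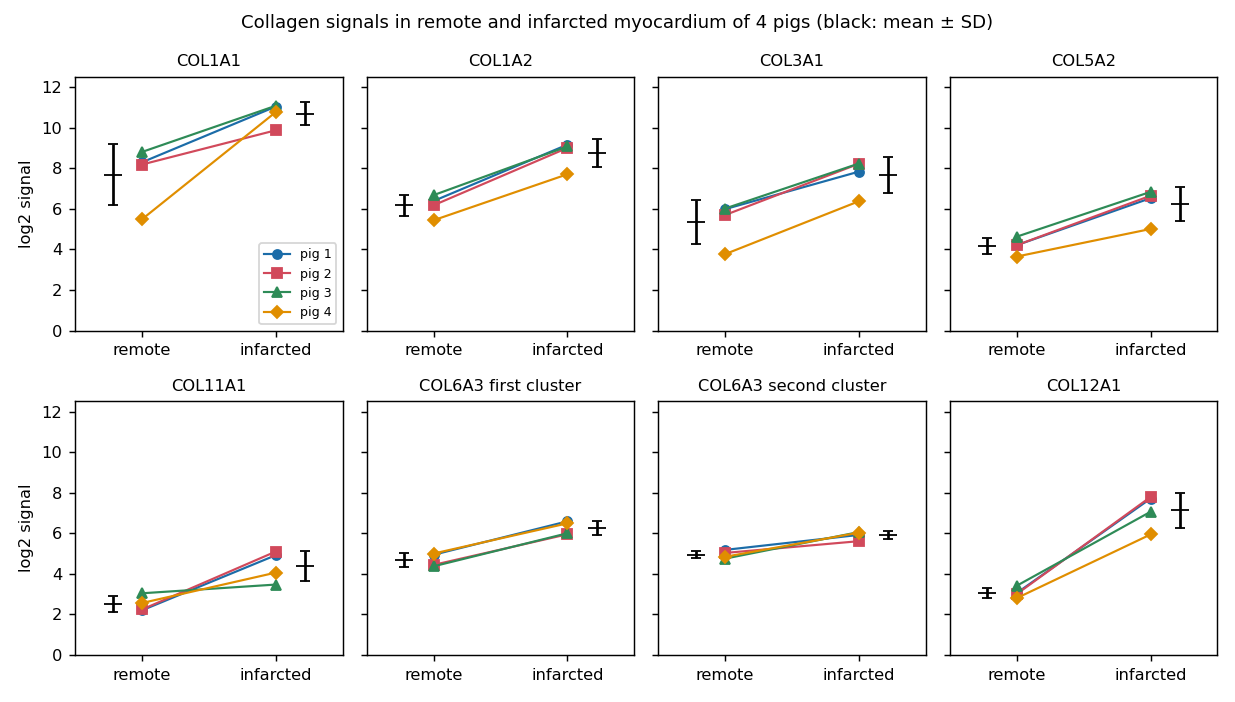
Log2 signal of each collagen cluster in remote and infarcted myocardium, with a line for each of the 4 pigs and the mean ± SD of each region in black. Levels of different clusters are not comparable with each other. Every line rises, and pig 4 starts well below the other pigs for COL1A1 (5.49) and COL3A1 (3.77) and ends below them for COL1A2 (7.71) and COL5A2 (5.01).

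COL1A1, the main chain of collagen I, had remote log2 signals of 8.30, 8.19, 8.81 and 5.49 in pigs 1 to 4 and infarcted signals of 11.05, 9.88, 11.09 and 10.78. The infarcted values lay close together, whereas the remote value of pig 4 was far below the other 3. The mean log2 signal was 7.70 ± 1.5 (SD, n = 4) in remote and 10.70 ± 0.56 in infarcted tissue. The log2 fold change was 3.0 (standard error 0.50, 95% interval 1.88 to 4.12, limma adjusted p = 0.00617). Its change by pig was 2.75, 1.69, 2.28 and 5.29, the widest spread of any member (SD of 1.59). Without pig 4 the log2 fold change was 2.24 with a standard error of 0.24, which is 4.72-fold instead of 8.01-fold. The cluster shares its annotation with the locus LOC100738213, which RefSeq does not tie to a gene name. In the infarcted samples its signal stood at the 99.6th to 99.9th percentile of the array.

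A pair of further clusters in the sheet is described as the alpha-1 chain of collagen I without a current gene name, and these were not counted as members. The cluster of LOC100738213 had remote signals of 7.68, 7.67, 7.68 and 5.77 and infarcted signals of 10.37, 10.05, 10.45 and 9.83, a log2 fold change of 2.98 (standard error 0.28). It repeated the low remote value of pig 4. The cluster of LOC397571 changed by 2.34, 1.73, 2.96 and 1.94 in pigs 1 to 4 (log2 fold change of 2.24, standard error 0.24), and its remote value in pig 4, 3.24, lay closer to the other 3 (3.37 to 3.77).

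COL1A2, which supplies the second chain of collagen I, had remote signals of 6.39, 6.18, 6.68 and 5.44 and infarcted signals of 9.17, 9.01, 9.08 and 7.71 in pigs 1 to 4. Pigs 1 to 3 were nearly alike in both regions, and pig 4 was lower in both. For COL1A2 the log2 change was 2.57 (standard error 0.20, 95% interval 2.11 to 3.03, limma adjusted p = 0.000396), with a range of 2.27 to 2.83 over the pigs. This cluster also lists the unnamed locus LOC100738989.

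COL3A1, the chain of collagen III, had remote signals of 5.99, 5.70, 6.02 and 3.77 and infarcted signals of 7.84, 8.23, 8.24 and 6.38. Pig 4 was lowest in both regions by more than 1 log2 unit, so that its infarcted value was only 0.36 above the highest remote value of the group. Its own change, 2.61, was nevertheless the largest of the 4. For COL3A1 the log2 fold change was 2.30 (standard error 0.21, 95% interval 1.83 to 2.78, limma adjusted p = 0.000636). Without the pig in the model the standard error was 0.55 and the adjusted p 0.0326.

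COL5A2, a chain of collagen V, had remote signals of 4.21, 4.21, 4.63 and 3.65 and infarcted signals of 6.53, 6.65, 6.84 and 5.01. Pig 4 again had the lowest value in each region, and also the smallest change, 1.36 against 2.21 to 2.44 in the others. The change of COL5A2 was 2.08 log2 units (standard error 0.23, 95% interval 1.55 to 2.61, limma adjusted p = 0.00133). Without pig 4 it was 2.32. COL5A2 and COL3A1 are direct neighbours in the Sscrofa11.1 assembly, with 0 annotated genes between them. Their changes were nearly the same in pigs 2 (2.44 and 2.53) and 3 (2.21 and 2.22) and apart in pig 4 (1.36 and 2.61).

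COL11A1 encodes a chain of collagen XI, which is best known from cartilage. Its remote signals were 2.20, 2.24, 3.04 and 2.56, which is below the array's median on 3 of the 4 remote arrays, and its infarcted signals were 4.92, 5.10, 3.47 and 4.06. Pigs 1 and 2 rose clearly, whereas pig 3 had the highest remote and the lowest infarcted value and a change of only 0.43. For COL11A1 the log2 fold change was 1.88 (standard error 0.38, 95% interval 1.02 to 2.74, limma adjusted p = 0.0144). The call was lost without pig 1 (adjusted p = 0.0952) or without pig 2 (0.0747), and without pig 3 the log2 fold change was 2.36, which is 5.13-fold. Whether its remote signal exceeds background is unknown, which makes the size of this change inexact. The cluster shares its annotation with the unnamed locus LOC100737939.

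COL6A3, the longest chain of collagen VI, was read by 2 clusters. The first had remote signals of 4.94, 4.44, 4.37 and 5.0 and infarcted signals of 6.59, 5.95, 6.0 and 6.49. Its changes of 1.65, 1.51, 1.63 and 1.49 were the most even of all members (SD of 0.08), and pig 4 was the highest rather than the lowest in the remote region. For this cluster the fitted log2 change was 1.57 (standard error 0.19, 95% interval 1.15 to 1.99, limma adjusted p = 0.00167). The second cluster changed by 0.74, 0.58, 1.31 and 1.19, with a log2 fold change of 0.96 (standard error 0.21, 95% interval 0.48 to 1.43, limma adjusted p = 0.0214). Both clusters moved in the same direction, and the first changed more in every pig.

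COL12A1, the chain of collagen XII, had remote signals of 3.05, 3.0, 3.41 and 2.80 and infarcted signals of 7.71, 7.79, 7.06 and 5.94. The remote values lay near the median of their arrays, at the 38.1th to 58.1th percentile, and the infarcted values at the 94.0th to 97.9th. Its log2 fold change was 4.06 (standard error 0.30, 95% interval 3.39 to 4.73, limma adjusted p = 0.000359), rank 8 among the rises of all 25470 clusters. It ran from 3.14 in pig 4 to 4.79 in pig 2, and was 4.37 (20.6-fold) without pig 4. With a remote signal this low the fold change is not exact. The cluster carries a pair of unnamed loci beside COL12A1.

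**Figure D2:**
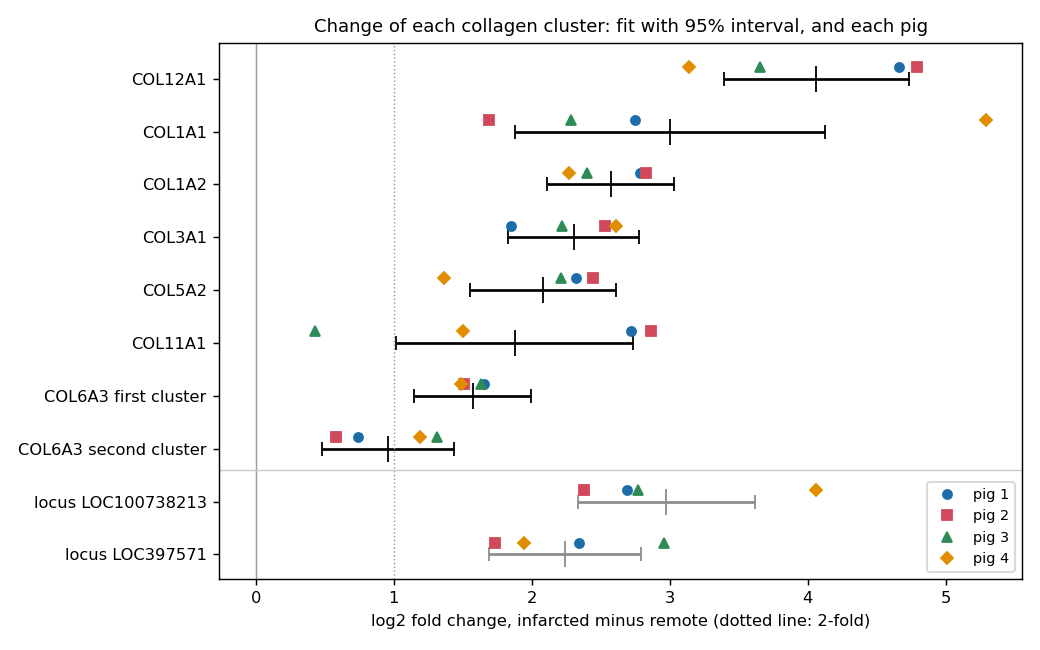
Log2 fold change of each collagen cluster between infarcted and remote tissue, with the estimate and 95% interval of the fit with the pig as a block (bars) and the change in each of the 4 pigs (symbols above them). The lower pair of rows shows the clusters that are only described as the alpha-1 chain of collagen I. COL12A1 lies farthest right at 4.06, COL6A3 farthest left, and pig 4 stands at 5.29 for COL1A1.

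The order of the mean changes was COL12A1, COL1A1, COL1A2, COL3A1, COL5A2, COL11A1 and COL6A3, where COL6A3 stands for its first cluster, which has the higher mean signal over the 8 arrays. That cluster was lower than the second in remote tissue (4.69 against 4.95) and higher in infarcted tissue (6.26 against 5.91), so this choice also took the larger rise. No neighbours in this order differed by more than the spread of their difference over the pigs. COL12A1 and COL1A1 differed by 1.06 ± 2.26 (SD, n = 4) in log2 change, COL3A1 and COL5A2 by 0.22 ± 0.73, and COL11A1 and COL6A3 by 0.31 ± 1.16. Some chains farther apart did. COL12A1 changed more than COL1A2, COL3A1, COL5A2, COL11A1 and COL6A3 in 4 of 4 pigs and more than COL1A1 in 3 of 4. COL1A2 changed more than COL6A3 in 4 of 4 pigs, by 1.0 ± 0.27, and more than COL5A2 in 4 of 4, by 0.49 ± 0.30. Pigs 1, 2 and 3 had COL12A1 first, and pig 4 had COL1A1 first. Without pig 4 the log2 fold change of COL12A1 was 4.37. That of COL1A1 was then 2.24, below those of COL1A2 (2.67) and COL5A2 (2.32), and that of COL3A1 was 2.20.

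Fibrillar chains and the chains VI and XII did not separate as classes. The 5 fibrillar genes changed by a mean of 2.48, 2.47, 1.91 and 2.61 log2 units in pigs 1 to 4. In pig 4 this mean combined 5.29 for COL1A1 with 1.36 to 2.61 for the other fibrillar genes. COL6A3 was below the fibrillar mean in 4 of 4 pigs, by 0.80 ± 0.36 (SD, n = 4), and COL12A1 was above it in 4 of 4 pigs, by 1.69 ± 0.81. The 2 genes outside the fibrillar class thus lay on opposite sides of it, and they differed from each other by 2.49 ± 0.78. The fibrillar mean minus the mean of COL6A3 and COL12A1 was −0.67, −0.68, −0.73 and 0.29, on average −0.45 ± 0.49. The average was −0.69 without pig 4 and −0.29 with both COL6A3 clusters averaged. No test was made of this score, since its members had been chosen.

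The proportion of COL1A1 to COL1A2 signal did not change in the same direction in all pigs. On an array only the change of such a ratio has a meaning, since each cluster has its own scale. The log2 difference COL1A1 minus COL1A2 went from 1.91 in remote to 1.88 in infarcted tissue in pig 1, from 2.01 to 0.87 in pig 2, from 2.13 to 2.01 in pig 3 and from 0.05 to 3.07 in pig 4. It fell in 3 pigs, in 2 of them by at most 0.12, and rose by 3.02 in pig 4. The mean change was 0.43 ± 1.80 (SD, n = 4, exact 2-sided sign-flip permutation test, p = 1, where 0.125 is the smallest p that 4 pigs allow). Without pig 4 the mean change was −0.43. With the cluster of LOC100738213 in place of COL1A1, a choice made after the values were seen, the changes were −0.09, −0.45, 0.37 and 1.79.

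The proportion of COL1A1 to COL3A1 signal changed by 0.90, −0.84, 0.06 and 2.68 log2 units in pigs 1 to 4. The mean was 0.70 ± 1.5 (SD, n = 4, exact 2-sided sign-flip permutation test, p = 0.375, adjusted over these 2 ratios 0.75). It was higher in infarcted tissue in 3 of 4 pigs, and without pig 4 the mean fell to 0.04. With 4 pigs this test cannot reach a p under 0.05 whatever the values, so it says nothing for or against a shift between type I and type III. The ratio of COL1A2 to COL3A1, which was not among the planned ones, was steadier, with changes of 0.93, 0.30, 0.18 and −0.34.

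**Figure D3:**
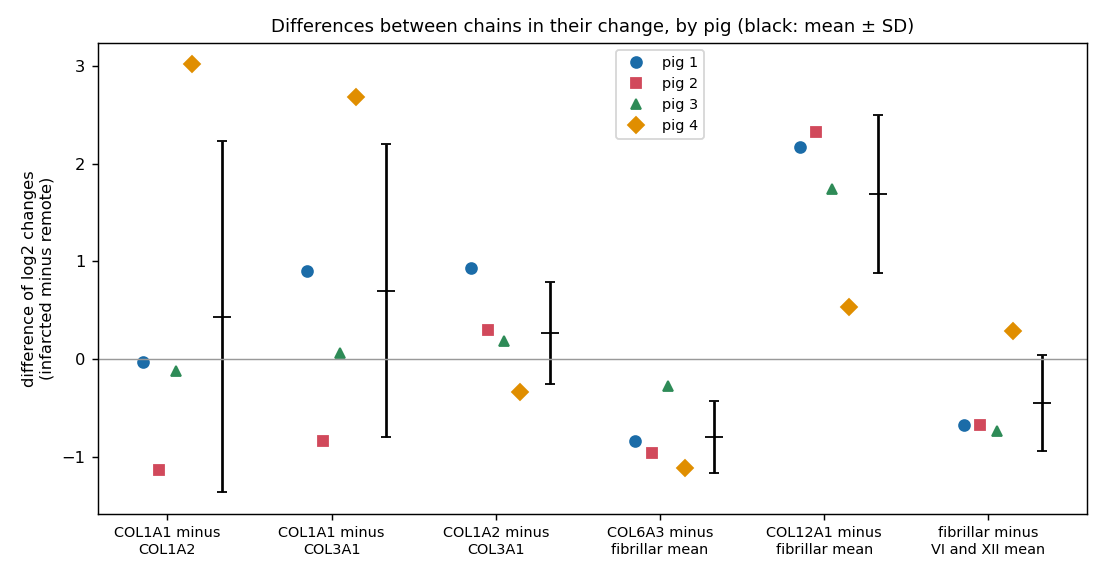
Differences between collagen chains in their log2 change from remote to infarcted tissue, with a symbol for each of the 4 pigs and the mean ± SD in black. Values above 0 mean that the first chain gained more. Pig 4 stands alone at the top for both COL1A1 ratios (3.02 and 2.68), and COL12A1 and COL6A3 lie on opposite sides of the fibrillar mean.

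The low remote values of pig 4 concerned some chains and not others. On its remote array COL1A1 stood at the 90.4th percentile of all clusters, against 98.1 to 99.0 in the other pigs, and COL3A1 at the 65.7th, against 86.8 to 90.8. COL5A2 (62.9 against 70.1 to 77.1) and COL12A1 (38.1 against 50.9 to 58.1) were lowest in pig 4 too, and COL1A2 narrowly so (90.0 against 90.5 to 94.5). COL11A1 was not lowest there (30.2 against 28.9 to 50.4). COL6A3 stood at the 86.0th percentile in pig 4, against 73.0 to 79.4. Of the named fibril-binding genes, POSTN (3.51 in pig 4 against 6.40 to 7.23), FN1 (4.82 against 6.20 to 6.81), BGN and SPARC were lowest on the same remote array. THBS1 (7.31 against 5.98 to 6.62) and CTHRC1 (2.46 against 1.80 to 2.29) were highest there, and FMOD and TNC lay within the range of the other pigs. ITGA11, a collagen receptor, was also highest there (3.98 against 3.47 to 3.66). These genes were picked after their values were seen. In the infarcted sample of pig 4 the log2 summed signal of the named macrophage markers was 9.32, against 11.4 to 11.5 in the others, and that of the cardiomyocyte markers went only from 13.5 in remote to 13.1 in infarcted tissue. The part of these differences in the collagen values of pig 4 was not tested.

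COL14A1, a relative of COL12A1 that also sits on fibrils, was the only other one of 37 further collagen chains with a name in the sheet. COL14A1 gained 1.42 log2 units (standard error 0.23, limma adjusted p = 0.00615), from remote signals of 4.36 to 5.86 to infarcted ones of 6.25 to 6.88. The groups did not overlap, and pig 4 had the lowest value in both regions. In mean log2 fold change COL14A1 thus changed less than COL12A1, which belongs to the same subfamily. The other further chains carry no name and have no values here.

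Among the genes that act on collagen and have a name, most had a higher signal in infarcted tissue. The counts of calls below stand against 3.33% of all clusters called higher and 4.56% called lower, and against 1010 higher and 1321 lower clusters in the sheet that supplies the names. Of 18 genes for proteins that bind collagen fibrils, 8 were named and all 8 rose, among them fibronectin FN1 (4.02) and periostin POSTN (3.86 in log2 fold change). Without any of pigs 1, 2 or 3 the count was 7, because THBS1 lost its call (limma adjusted p up to 0.149). Of 24 genes for collagen synthesis inside the cell, 5 were named. Of these, 3 rose, including the lysyl hydroxylase PLOD2 (1.73), which prepares collagen for cross-linking, and the chaperone FKBP10 (1.68). The third was SERPINH1 (1.42), the collagen chaperone HSP47, which did not pass without the pig in the model (adjusted p = 0.0867). TMEM38B, an ion channel of the endoplasmic reticulum, fell by 1.22, and lost the call without any of pigs 1, 2 or 3 (limma adjusted p up to 0.174). Of 14 genes for propeptide removal and cross-linking, only the cross-linking oxidase LOX was named. It rose by 1.26, a call lost without any of pigs 1, 2 or 3 (up to 0.135) and without the pig in the model (0.142).

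Of 16 genes for collagen breakdown and its inhibitors, 10 were named, 8 rose and 1 fell, against 5 and 1 without the pig in the model. Without pig 1 the counts were 5 and 0, and without pig 4 they were 8 and 1. The lysosomal proteases CTSS (2.73) and CTSK (2.73) led the rises, and CTSK, like the collagenases, can cut the triple helix. Of the named protease inhibitors, TIMP1 (1.49) and TIMP2 (1.57) rose and TIMP3 fell by 1.1. The calls of TIMP1 and TIMP3 were lost without any of pigs 1, 2 or 3 (limma adjusted p up to 0.0909 and 0.0949), and that of TIMP2 without pig 1 (0.0541). Of 13 collagen receptors, 4 were named and 3 rose (2 without pig 1, 2 or 3, and 4 without pig 4), with the collagen-binding integrins ITGA2 (2.42) and ITGA11 (2.16) in the lead. ITGA11, the integrin of matrix-making fibroblasts, changed evenly over the pigs (1.85 to 2.56). The remote signal of ITGA2 was below the median of all 4 arrays, so its change is not exact. All these names exist only for genes selected on this contrast, so the counts describe the named genes. Over all 25470 clusters the median log2 fold change was 0.02.

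**Figure D4:**
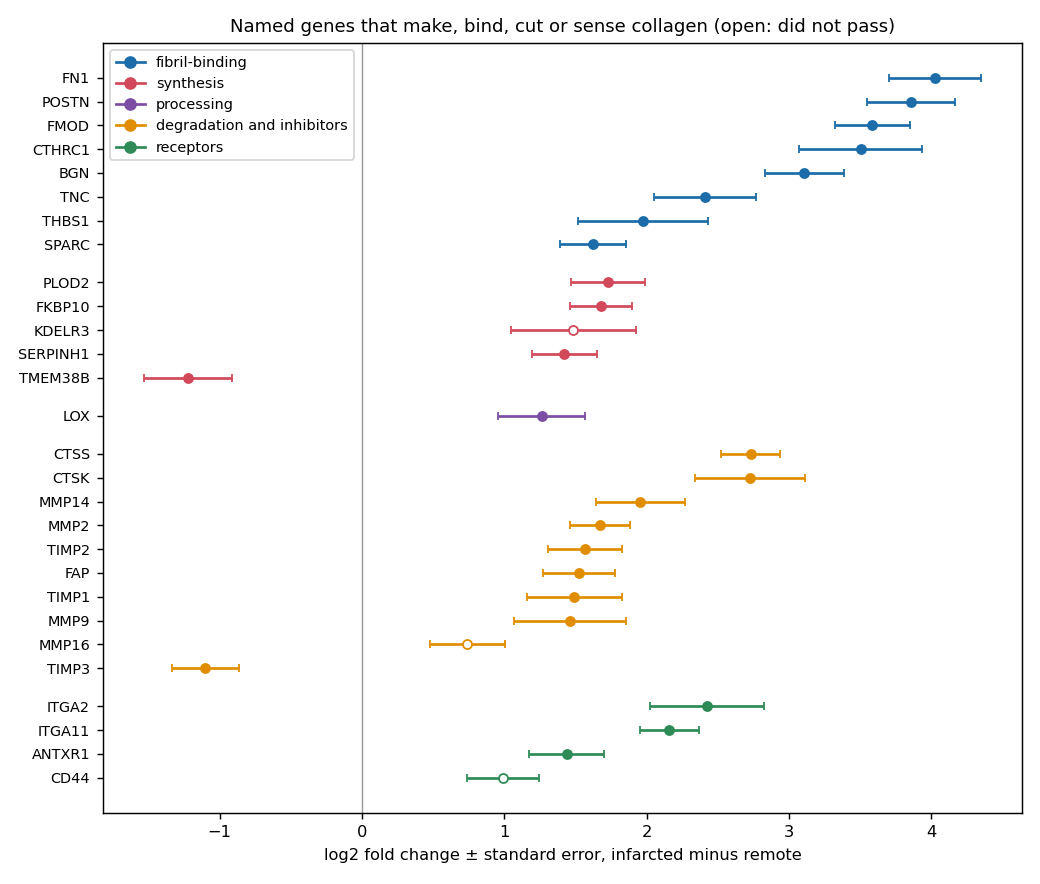
Log2 fold change ± standard error (4 pigs, fit with the pig as a block) of the named genes that bind, make, process, degrade or sense collagen, coloured by group. Filled symbols passed the adjusted p and the fold limit, and open symbols did not. Most lie to the right of 0, FN1 farthest at 4.02, and TMEM38B and TIMP3 lie to the left.

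Cell type markers also differed between the regions, again among names from a sheet selected on this contrast. In the same fit 3.33% of all clusters were called higher and 4.56% lower. Of 18 cardiomyocyte markers, 10 were named and 8 fell (4 without pig 1 and 5 without pig 3), among them MYBPC3 by 3.43 and RYR2 by 2.88 on the log2 scale. The log2 of their summed signals ran from 13.5 to 14.4 in remote and from 10.8 to 13.2 in infarcted samples. Of 17 macrophage markers, 9 were named and all 9 rose (8 without pig 1, where FCER1G was lost with a limma adjusted p of 0.0534), with log2 summed signals of 7.80 to 8.31 in remote and 9.32 to 11.5 in infarcted samples. SPP1 (6.13) and LYZ (3.71) led these rises. Their remote signals were each below the array's median on 3 of the 4 remote arrays, so these sizes are not exact. Of 14 fibroblast markers, 4 were named and 3 rose, with CDH11 (3.44) and VIM (1.77) first, and with summed signals of 7.88 to 8.38 against 9.10 to 9.96. The third, FAP, did not pass without the pig in the model (limma adjusted p = 0.103). FAP and the macrophage marker CTSS were also counted above among the genes for collagen breakdown. The fourth, MFAP5, had a log2 fold change of −1.54 (adjusted p = 0.0630), negative in 4 of 4 pigs. Of 14 lymphocyte and neutrophil markers, 3 were named and 2 rose, S100A8 (2.33) and NKG7 (1.48). The remote signal of S100A8 was below the array's median on 3 of the 4 remote arrays. Without pig 1 NKG7 lost its call (limma adjusted p = 0.0588). Of 10 endothelial markers 0 were named. The part of these shifts in tissue composition in the collagen changes was not tested.

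The genes whose log2 signals over the 8 arrays followed the mean collagen profile most closely were ARPC5 (Pearson's r = 0.992), CAPG (0.991), FMOD (0.986), OLFML3 (0.986) and DKK3 (0.984). FMOD encodes fibromodulin, a small proteoglycan on collagen fibrils, and ARPC5 and CAPG encode proteins of the actin cytoskeleton. The collagens themselves correlated with this mean, which contains each of them, with r from 0.856 for COL6A3 to 0.992 for COL1A2. These correlations are descriptions over 8 arrays that share pigs and regions, and most of their size is the difference between the regions. Among unnamed clusters, 4 had a higher r than DKK3.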

How the data were processed

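RNA of 4 infarcted and 4 remote samples was hybridised to GeneChip Porcine Gene 1.1 ST arrays. The deposited values are log2 signals of transcript clusters, which the authors obtained with the Transcriptome Analysis Console (summarisation method not given in the sources used here). A deposited sheet with the authors' own comparison also holds a signed fold change (a score, negative where lower) and p-values, read only to find its limits. Its gene symbols were used, with 111 of 537 placeholder loci updated from RefSeq (Sscrofa11.1). The remaining sheets hold gene lists and enrichment results and were not used. Sequences were not used here, and gene coordinates only for the genes between COL3A1 and COL5A2.

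A linear model was fitted to these values with limma 3.58.1 under R 4.3.3 (region plus pig, empirical Bayes, 2-sided), adjusted by Benjamini-Hochberg over 25470 clusters. Called means more than a 2-fold difference with an adjusted p below 0.05. There were 3 residual and 5.94 prior degrees of freedom, and the median standard error was 0.22. The fit was tested on simulated data. Both samples of a pig were cut from 1 heart, which makes the design paired. Their deviations from the region means correlated with r of 0.177, 0.428, 0.113 and 0.441 in pigs 1 to 4, in every case more than the infarcted sample did with the remote sample of any other animal. Arrays carry no read depth, so the number of arrays limits the precision. The p-values of this fit rest on the spread of the within-pig change over 4 pigs, moderated toward the spread typical of all clusters. Differences in level between the pigs are removed by the block.

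A gene with several clusters is represented by the cluster with the highest mean signal. The text names all members, any other named collagen, the 2 largest called rises and falls of a list, and the 5 genes closest to the collagen profile. SERPINH1, THBS1, TIMP1, TIMP2, FCER1G, FAP, MFAP5 and the genes set beside pig 4 were added after their values were seen. Members and lists were chosen with earlier results of these data known. Alternatives were no replicate block, quantile, centred and scaled signals, a filter on low signals, array weights, other moderation, the mean over a gene's clusters, a 2-fold null and leaving out each pig. Python 3.11.15, pandas 2.3.3, numpy 2.4.6, scipy 1.17.1 and matplotlib 3.10.9 were used.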

Additional observations from a re-analysis of the deposited data

Results flagged for a closer look

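In 3 of 24 sets of 4 values (8 collagen clusters, each in remote tissue, in infarcted tissue and as the change), the lowest value lay far from the rest by Dixon's criterion, which chance meets in about 1 of 20 sets. All 3 belong to pig 4. The infarcted COL1A2 signal of pig 4 was 7.71, against 9.01 to 9.17 in the others. The remote COL3A1 signal of pig 4 was 3.77, against 5.70 to 6.02. The infarcted COL5A2 signal of pig 4 was 5.01, against 6.53 to 6.84. The sets share animals and are not independent, and both arrays of pig 4 also had a narrower spread of signals (SD of 1.46 and 1.49). The part of that spread in these values was not tested.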

How the results depend on the processing

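Over all clusters 848 were called higher and 1161 lower in infarcted tissue with the replicate block, against 558 and 813 without it, and 61 and 124 in a test against a 2-fold change, which asks for a larger effect. With 1 pig left out the counts ran from 388 to 1245 higher and from 541 to 1538 lower clusters (1182 and 1467 without pig 4 and with region as the only factor, chosen after seeing the data). They were 388 and 541 without pig 1, 478 and 709 without pig 2, 510 and 655 without pig 3, and 1245 and 1538 without pig 4. The number of collagen clusters called was 7 under every setting for which it was computed (all but the test against a 2-fold change), except 6 without pig 1 or pig 2, where COL11A1 was lost. Every collagen cluster kept a positive change under every setting, and COL1A1 ranged from 2.24 to 3.44 in log2 fold change with 1 pig left out and from 2.52 to 3.19 otherwise. The change in the COL1A1 to COL1A2 ratio ran from −0.43 without pig 4 to 0.96 with other pigs left out, and from 0.38 to 0.60 under other settings. The change in the COL1A1 to COL3A1 ratio ran from 0.04 to 1.21 with 1 pig left out. The fibrillar mean minus that of COL6A3 and COL12A1 ran from −0.69 to −0.35 with 1 pig left out and from −0.45 to −0.29 under other settings, −0.29 being the value with the mean over all clusters of a gene. Arrays give no detection call here, so the sizes for COL11A1 and COL12A1, with remote signals near or below the array medians, are limited by background.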

Other observations

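Of 19 genes of transforming growth factor beta signalling, a pathway that drives collagen synthesis in fibroblasts, 2 were named and both rose, in a fit that called 3.33% of all clusters higher and with names taken from a sheet selected on this contrast. The ligand TGFB3 rose by 1.70 on the log2 scale (limma adjusted p = 0.00846, up to 0.0604 with 1 pig left out, the call being lost without pig 1 or 2), and the matricellular factor CTGF rose by 1.63 (adjusted p = 0.00339). Of 8 myofibroblast and smooth muscle markers, 3 were named. The contractile genes ACTA2 (2.46 in log2 fold change) and TAGLN (1.69) rose, while SMTN fell by 1.04. ACTA2 changed by 0.46 to 3.89 over the pigs, a wider range than that of COL1A2, and lost the call without pig 1 or 3 (adjusted p up to 0.0618). SMTN lost it without pig 1, 3 or 4 (up to 0.0876).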
